A study of Mus musculus with 6 samples.

Results

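Acute phase secreted proteins are plasma proteins that the liver makes in larger amounts after infection or injury. The genes described here are the 4 serum amyloid A genes (Saa1, Saa2, Saa3 and Saa4), the 3 orosomucoid genes (Orm1, Orm2 and Orm3), haptoglobin (Hp), lipocalin 2 (Lcn2) and serum amyloid P component (Apcs), which were chosen by gene symbol and make up 10 of the 53599 genes in the count table. All 10 were found in the table and all 10 passed the filter on low counts, with no member lost.

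The libraries came from mouse hepatocytes collected 4 days after an adeno-associated virus of serotype 8 (AAV8) was injected, and they compare hepatocytes that express Sox4 with control hepatocytes. The 3 Sox4 libraries came from mice given AAV8-TBG-HA-Sox4-P2A-Cre, and the 3 libraries of the empty vector group (EV) came from mice given AAV8-TBG-Cre. Both vectors were driven by TBG, a hepatocyte promoter, and both delivered Cre recombinase. The Sox4 vector added HA-tagged Sox4 joined to Cre by P2A, and the methods build it in another vector backbone than the control described there, which carries a U6-sgRNA cassette without a target and another polyadenylation signal, so such vector differences cannot be told apart from Sox4. The labels give the genotype of the EV mice as WT and that of the others as Sox4, whereas the methods of the study describe injections, a few weeks after birth, into Rosa-LSL-Cas9-EGFP mice on a C57BL/6J background, in which Cre switches on Cas9 and EGFP in either group. Hepatocytes were released by digestion of the liver and enriched on Percoll, a density medium, so other liver cells could remain. The labels only number the replicates, and the study describes them as separate animals.

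In the acute phase response, interleukin 6 and related cytokines act on hepatocytes through gp130, the Janus kinases and STAT3, and interleukin 1 and tumour necrosis factor act through NF-kB. These factors work on the promoters of acute phase genes together with C/EBP proteins and with factors that mark hepatocytes, such as HNF4A. Saa1 and Saa2 are among the most inducible genes of the liver, whereas Saa4 is made at a steady level and is called the constitutive member of its family.

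Total counts per library ranged from 15090629 to 16964860, and a count of 3, taken as the floor, was at most 0.231 CPM (CPM, counts scaled to a library of 1e06, here with library sizes adjusted by the trimmed mean of M-values, TMM). Sox4 itself had 2, 0 and 3 counts in the EV libraries and 21697, 15097 and 11816 in the Sox4 libraries. Of 12691 genes tested with edgeR's quasi-likelihood test, 6990 passed an adjusted p of 0.05, so most genes of these cells moved and the background for any gene list is high. The scaling also mattered, because the TMM-scaled library sizes of the Sox4 group were 1.48 times those of EV while the total counts were 1.07 times. With library size alone, the median log2 fold change of all genes tested went from 0.04 to 0.51, and the share of calls that were higher in Sox4 went from 52.7% to 79.9%.

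The promoters of 8 of the 10 genes were held in the RefSeq promoter table of build GRCm38.p6, and Orm1 and Hp were not among them. The 250 bases before the start of 5 of these genes are shown, because Saa1 and Saa2 changed alike, Saa4 of the same family changed least, and Orm2 and Orm3 have similar windows with log2 fold changes of -1.16 and -2.52. Each is written 5′ to 3′ in the direction of its gene, and capitals mark matches to TTNNGNAA, a short form of the C/EBP motif, on either strand.
Saa1, chr7:46742981-46743230, strand -: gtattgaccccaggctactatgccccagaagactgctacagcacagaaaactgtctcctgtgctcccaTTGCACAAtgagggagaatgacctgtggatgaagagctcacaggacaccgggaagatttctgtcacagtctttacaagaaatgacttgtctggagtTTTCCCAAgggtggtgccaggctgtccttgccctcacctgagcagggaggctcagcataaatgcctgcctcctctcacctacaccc
Saa2, chr7:46751583-46751832, strand +: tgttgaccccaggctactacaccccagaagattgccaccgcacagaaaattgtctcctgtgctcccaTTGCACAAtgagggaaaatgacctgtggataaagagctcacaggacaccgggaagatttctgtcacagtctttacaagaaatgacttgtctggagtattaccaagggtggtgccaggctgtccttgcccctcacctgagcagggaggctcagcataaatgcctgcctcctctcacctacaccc
Saa4, chr7:46732604-46732853, strand -: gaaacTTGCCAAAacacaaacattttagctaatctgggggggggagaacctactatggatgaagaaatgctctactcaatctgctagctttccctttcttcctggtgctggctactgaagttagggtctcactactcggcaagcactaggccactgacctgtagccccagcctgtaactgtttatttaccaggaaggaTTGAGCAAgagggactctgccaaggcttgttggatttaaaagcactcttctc
Orm2, chr4:63362199-63362448, strand +: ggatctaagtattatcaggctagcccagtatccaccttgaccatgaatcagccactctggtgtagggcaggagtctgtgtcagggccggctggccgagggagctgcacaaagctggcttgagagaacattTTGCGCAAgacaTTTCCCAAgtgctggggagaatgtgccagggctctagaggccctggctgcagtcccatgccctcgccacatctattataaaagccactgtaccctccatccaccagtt
Orm3, chr4:63355908-63356157, strand +: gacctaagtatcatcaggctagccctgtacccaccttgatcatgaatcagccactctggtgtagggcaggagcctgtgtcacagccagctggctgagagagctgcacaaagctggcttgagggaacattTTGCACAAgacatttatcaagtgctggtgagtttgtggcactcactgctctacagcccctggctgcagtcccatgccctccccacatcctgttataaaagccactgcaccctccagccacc

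The Saa1 and Saa2 windows were identical at 238 of 251 aligned columns, or 94.8%, and those of Orm2 and Orm3 at 85.5%. Saa4 had 46.3% identity with Saa1, and Saa3 had 48.5%. The identity of unrelated windows was not computed. The C/EBP letters TTNNGNAA were present in 7 of the 8 windows (all but Apcs), against 36.8% of 32817 RefSeq promoters of the same length. Saa1 differed from Saa2 in carrying a second C/EBP match, TTTCCCAA, which overlaps the NF-kB letters (GG, any 3 bases, TTTCC, here GGAGTTTTCC). That NF-kB match was in 1 of the 8 windows and in 4.63% of all promoters. The STAT letters TTCNNNGAA were in 1 of the 8, Apcs, and in 7.01% of all, while the HNF4 letters CAAAGTCCA were in 0 of the 8 and in 0.384% of all. The SOX letters ACAANG were in the windows of Saa1, Saa2, Orm2 and Orm3, or 4 of 8, against 36.3% of all promoters. These are 2 pairs of similar windows with the match at nearly the same place (-178 and -179, -144 and -145). The 8 windows are therefore not independent, and for no motif can their count be set against all promoters as 8 separate cases. In Saa1 and Saa2 the SOX match ACAATG shares bases with the C/EBP match TTGCACAA. Both strands were searched for each motif, and a match describes letters in the window and not a site in use.

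Of the 10 acute phase genes, 9 were lower in Sox4 hepatocytes, 0 were higher and 1, Lcn2, did not pass the threshold (edgeR quasi-likelihood test, adjusted p under 0.05). Of all genes tested, 26.0% were lower and 29.0% higher. At least a 2-fold decrease was found for 8 of the 10, against 11.9% of all genes, and the EV libraries lay above every Sox4 library for 9 of the 10, against 29.9%, or 63.0% of genes without overlap in either direction. The median log2 fold change of the 10 was -1.63, beside 0.04 for all genes. With library size alone the 10 values stayed below 0, their median was -1.16, and 7 genes were called lower (12.8% of all genes), with Saa3, Saa4 and Lcn2 losing or missing the call. Under that scaling 5 of the 10 were called at least 2-fold lower (6.23% of all genes) and 8 were without overlap (14.8%), as Saa4 then overlapped too.

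**Figure D1:**
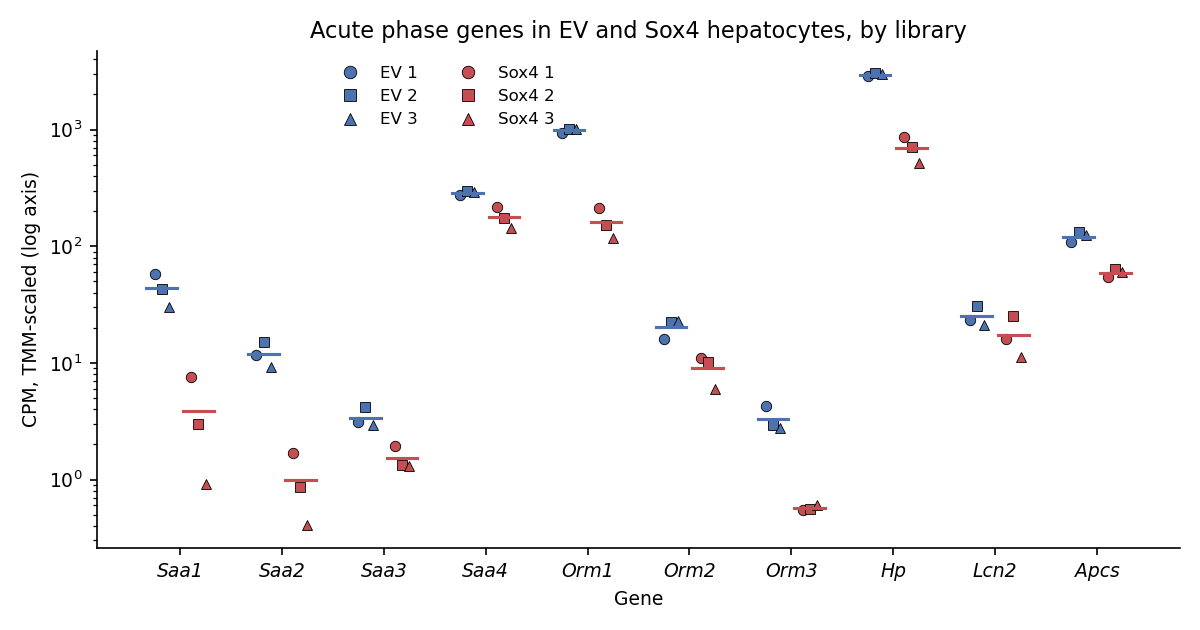
Level of each acute phase gene in each library, in CPM scaled by TMM on a log axis, with circles, squares and triangles for replicates 1, 2 and 3 and a line at the mean of each group (n = 3). The 3 EV points lie above the 3 Sox4 points for each gene but Lcn2 (with library size alone Saa4 overlaps too), and the Sox4 points of Saa1 are spread from 7.62 down to 0.912 CPM.

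Saa1, a high density lipoprotein protein that rises steeply in the acute phase, had 57.7, 42.9 and 30.3 CPM in the EV libraries and 7.62, 3.01 and 0.912 CPM in the Sox4 libraries. Every EV library was several times above the highest Sox4 library, but the Sox4 libraries were far from each other. The mean fell 11.3-fold, from 43.6 ± 13.7 to 3.85 ± 3.43 CPM (SD, n = 3), or by -3.50 (log2 scale, SE 0.88, adjusted p = 0.00686). Sox4 replicate 1 held most of the remaining Saa1 counts, 152 beside 59 and 18, and without it the log2 fold change was -4.47.

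Saa2, the near twin of Saa1 and likewise an apolipoprotein of the acute phase, had 11.8, 14.96 and 9.15 CPM in EV and 1.70, 0.868 and 0.405 CPM in Sox4. The groups were well apart, and Sox4 replicate 1 was again the highest and replicate 3 the lowest of its group. On the log2 scale Saa2 changed by -3.58 (SE 0.56, adjusted p = 9.98e-05), and by -4.22 without Sox4 replicate 1. Saa1 and Saa2 share sequence, with 14.8% of the 50-base words of Saa1 found in another gene, so reads may have been lost or split between them. With the counts of both summed, the log2 fold change was -3.52 (adjusted p = 0.00551), or -4.42 without Sox4 replicate 1.

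Saa3, which in the mouse is made largely outside hepatocytes, in macrophages and fat among other cells, was a low gene here. It had 40, 55 and 40 counts in EV and 39, 26 and 26 counts in Sox4, and on the scaled level 3.08, 4.18 and 2.91 CPM against 1.96, 1.33 and 1.32 CPM. The groups did not overlap in CPM, although the raw counts of EV replicates 1 and 3 were only 1 above that of Sox4 replicate 1. The log2 fold change of -1.14 (SE 0.23, adjusted p = 0.0126) lost its call with library size alone (-0.67, adjusted p = 0.0926) and without EV replicate 2 (-0.98, adjusted p = 0.0569).

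Saa4, the constitutive serum amyloid A of lipoproteins, had the smallest change among the genes called. It had 274, 296 and 295 CPM in EV and 218, 175 and 144 CPM in Sox4, with the EV libraries close together and the Sox4 libraries spread below them. Saa4 changed by -0.69 (log2 scale, SE 0.18, adjusted p = 0.00446), from 288 ± 12.1 to 179 ± 37.2 CPM. With library size alone it was -0.22 and not called (adjusted p = 0.243), so its call rests on the scaling. Of all serum amyloid A counts, Saa4 held 83.1% ± 4.19 in EV and 96.8% ± 1.58 in Sox4 (SD, n = 3), whereas Saa1 held 12.5% ± 3.86 and 1.88% ± 1.36, shares that also depend on transcript length.

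The orosomucoids, or alpha-1-acid glycoproteins, are carriers of basic drugs and lipids in plasma. Orm1, the main form in mouse liver, had 935, 1020 and 1008 CPM in EV and 213, 153 and 118 CPM in Sox4. The EV libraries were within a narrow range, and the lowest of them was more than 4 times the highest Sox4 library. Orm1 fell 6.12-fold, or by -2.61 (log2 scale, SE 0.25, adjusted p = 9.22e-06).

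Orm2, a second orosomucoid at a much lower level, had 15.9, 22.3 and 22.7 CPM in EV and 11.0, 10.3 and 5.93 CPM in Sox4. The groups were apart, with EV replicate 1 nearest to the Sox4 libraries. The decrease on the log2 scale was -1.16 (SE 0.32, adjusted p = 0.00279).

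Orm3, the least abundant orosomucoid gene, had 55, 39 and 38 counts in EV and 11, 11 and 12 in Sox4, which correspond to 4.24, 2.96 and 2.76 CPM against 0.551, 0.562 and 0.608 CPM. The Sox4 libraries were almost equal and each lay far below EV. Orm3 changed by -2.52 (log2 scale, SE 0.19, adjusted p = 2.51e-04). Orm1 and Orm2 share 20.4% of the 50-base words of Orm1, and reads from the abundant Orm1 assigned to Orm2 cannot be told apart from Orm2 reads. The summed counts of the 3 genes had a log2 fold change of -2.56 (adjusted p = 9.66e-06).

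Hp encodes haptoglobin, which binds free hemoglobin in plasma, and it had the most counts of the 10 genes. Its level was 2869, 3036 and 2993 CPM in EV and 870, 709 and 516 CPM in Sox4. The EV libraries were nearly equal, while Sox4 replicate 1 was the highest and replicate 3 the lowest of its group, as for the serum amyloid A genes, Orm1 and Orm2. Hp fell 4.25-fold, from 2966 ± 86.3 to 698 ± 177 CPM, or by -2.09 (log2 scale, SE 0.22, adjusted p = 2.31e-05).

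Lcn2 encodes lipocalin 2, which withholds iron from bacteria by binding their siderophores and is made by neutrophils as well as by stressed hepatocytes. It had 23.5, 30.9 and 21.0 CPM in EV and 15.9, 25.3 and 11.2 CPM in Sox4. The groups overlapped, because Sox4 replicate 2 was above EV replicates 1 and 3. The log2 fold change was -0.53 (SE 0.38, adjusted p = 0.147), and it was -0.05 with library size alone. Lcn2 was called lower with no filter (-0.48, adjusted p = 0.0121), with the replicate number as a block (-0.58, adjusted p = 0.00758) and without Sox4 replicate 2 (-0.89, adjusted p = 0.0127), so whether it changed was not settled by these libraries. Sox4 replicate 2 was the highest of its group for Lcn2 and Apcs but for none of the other 8 genes.

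Apcs encodes serum amyloid P component, a pentraxin that is the main acute phase form of its family in the mouse. It had 108, 131 and 124 CPM in EV and 54.6, 63.4 and 60.5 CPM in Sox4. Both groups were tight and well separated. Apcs changed by -1.02 (log2 scale, SE 0.10, adjusted p = 7.03e-05), from 121 ± 11.8 to 59.5 ± 4.46 CPM.

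**Figure D2:**
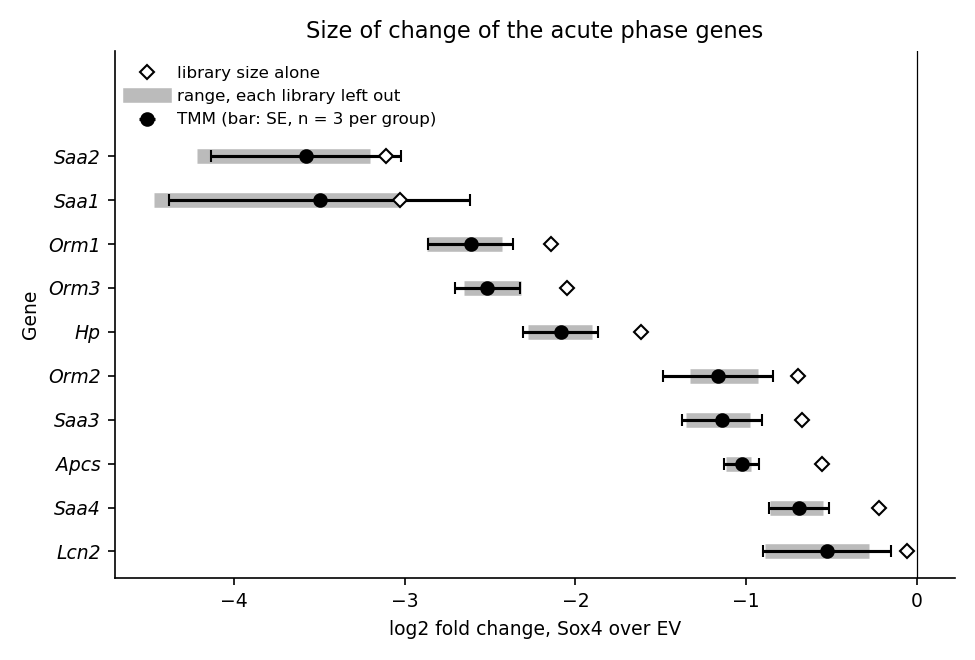
log2 fold change of each acute phase gene, Sox4 over EV, with filled circles for TMM scaling (bars: SE, n = 3 per group), open diamonds for library size alone and grey bars for the range when each library was left out in turn. The values run from -3.58 for Saa2 to -0.53 for Lcn2, and the diamonds of Saa4 (-0.22) and Lcn2 (-0.05) lie close to 0.

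Added up, the 10 genes had 4303, 4601 and 4508 CPM in EV and 1395, 1142 and 859 CPM in Sox4, a 3.95-fold difference between means that Hp and Orm1 mostly carried. As a share of all counts, a measure that needs no TMM scaling, they took 0.379% ± 0.00835 in EV and 0.133% ± 0.0316 in Sox4, or 2.85-fold less (SD, n = 3). Within the 10, the share of counts held by Hp went from 66.4% ± 0.352 to 61.5% ± 1.26 and that of Orm1 from 22.1% ± 0.322 to 14.2% ± 0.994. The share of Saa4 went from 6.45% ± 0.0806 to 15.9% ± 0.747, and that of Apcs from 2.71% ± 0.173 to 5.51% ± 1.57. In bulk RNA, fewer cells that express a gene and less RNA per cell cannot be told apart.

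Ratios between genes in the same library do not depend on the scaling, and 10 were compared with an exact two-sided permutation test, for which 3 against 3 libraries cannot give a p below 0.1. The log2 ratio of Saa1 counts to Saa4 counts was -2.77 ± 0.516 in EV and -5.98 ± 1.22 in Sox4 (SD, n = 3), with no overlap and a difference of -3.21 (exact p = 0.1, Benjamini-Hochberg adjusted 0.111). For Saa1 to Saa2 it was 1.84 ± 0.399 in EV and 1.68 ± 0.517 in Sox4, with overlapping groups (difference -0.165, exact p = 0.8). Saa1 to Saa2 was the exception, and the groups of the other 9 ratios did not overlap, so each had the smallest p this design allows and none passed 0.05. The ratios reuse the same genes in the same libraries, and the unequal fold changes of these genes are given above. Their separation therefore restates those values and is no further support. How often ratios of other genes separate was not computed.

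Among the orosomucoids, Orm1 had 58.9, 45.7 and 44.4 counts for each count of Orm2 in EV and 19.4, 14.9 and 19.9 in Sox4, a log2 difference of -1.46 (exact p = 0.1, adjusted 0.111). The difference was -0.535 for Orm1 to Hp, -1.80 for Saa1 to Hp, -1.10 for Hp to Apcs and -1.53 for Hp to Lcn2. Against albumin (Alb), the main plasma protein of hepatocytes, the log2 ratio of Hp went from -5.06 ± 0.152 to -6.60 ± 0.502, and the differences for Orm1 and Saa1 were -2.08 and -3.35. In each Sox4 library these 3 genes had fewer counts per Alb count than in any EV library.

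**Figure D3:**
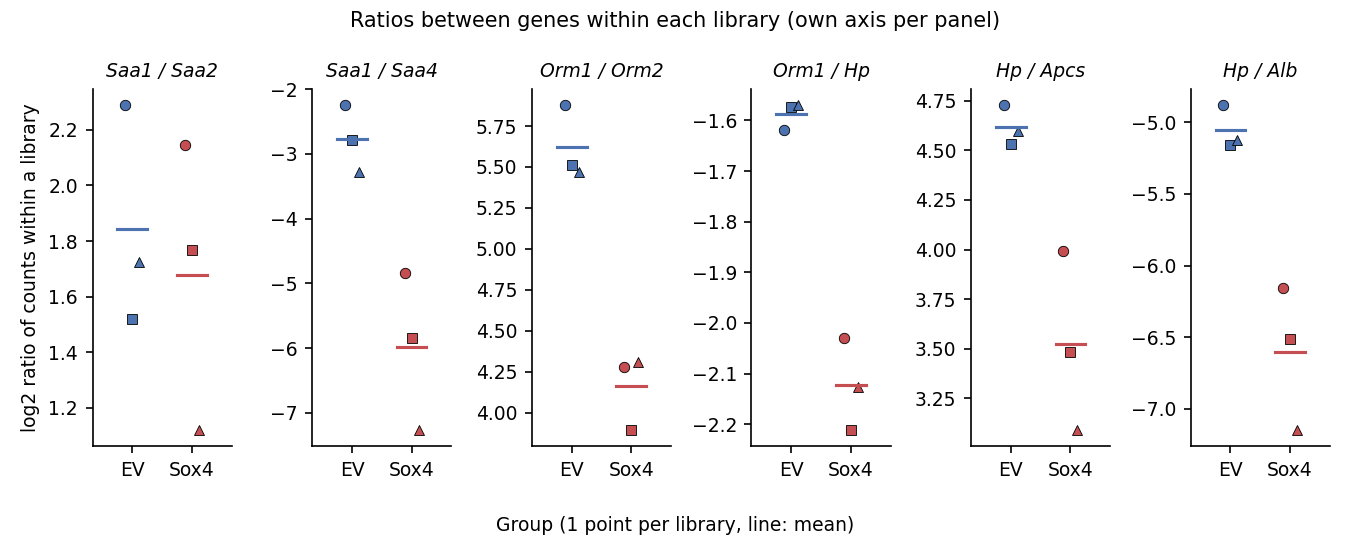
log2 ratio of the counts of gene pairs within each library, 1 panel for each pair with its own axis, with 1 point for each library and a line at the group mean (n = 3). The EV and Sox4 points overlap for Saa1 over Saa2 and are separate for the other 5 pairs, with Saa1 over Saa4 going from -2.77 to -5.98.

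Per length of exon, Hp was the highest of the 10 genes in EV, at 2205 ± 64.2 CPM per kb, followed by Orm1 at 1274 ± 59.2. Saa4 (138 ± 5.77) and Apcs (125 ± 12.1) overlapped with each other, and Saa1 followed at 71.7 ± 22.6 CPM per kb. Orm2 (26.2 ± 4.96), Lcn2 (20.3 ± 4.17) and Saa2 (18.4 ± 4.46) could not be separated by their spread, and Orm3 (4.30 ± 1.04) and Saa3 (1.30 ± 0.264) were lowest. In Sox4 the order of the upper genes was kept, with Hp at 519 ± 132, Orm1 at 208 ± 62.0, Saa4 at 85.4 ± 17.8 and Apcs at 61.3 ± 4.60 CPM per kb. Saa1 moved down among the lower genes, at 6.32 ± 5.63 CPM per kb beside 14.1 ± 5.82 for Lcn2 and 11.7 ± 3.53 for Orm2, and its range overlapped theirs. Saa2 (1.52 ± 1.01), Orm3 (0.742 ± 0.0391) and Saa3 (0.588 ± 0.140) overlapped at the lower end. The lengths come from an annotation of another build than the counts, so these values rank genes only roughly.

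Of 20 other positive acute phase proteins, 19 were tested, 12 were lower and 2 were higher, beside 26.0% and 29.0% of all genes, with a median log2 fold change of -0.95 beside 0.04 for all genes. The largest decreases were those of Crp, a pentraxin near Apcs on chromosome 1 (425 to 84.3 CPM, log2 fold change -2.33, adjusted p = 1.46e-06), and of Lrg1, a leucine-rich glycoprotein of plasma (526 to 117 CPM, -2.17, adjusted p = 6.10e-06). Serpina3n, a protease inhibitor, had -1.55 (adjusted p = 2.26e-05), the fibrinogen-like Fgl1 -1.47 (adjusted p = 1.55e-04) and the fibrinogen chain Fgg -1.18 (adjusted p = 2.74e-04). Cp, Cfb, Cd14, Mt1 and Steap4 did not pass the threshold, and were named after their values were seen. With library size alone 9 of the 19 were lower and 2 higher, beside 12.8% and 51.0% of all genes.

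The 2 genes that went up were Itih3, an inter-alpha-trypsin inhibitor heavy chain (0.58, adjusted p = 0.00592), and Hamp, which encodes the iron hormone hepcidin. Hamp had counts of 1337, 4347 and 4114 in EV and 10105, 9696 and 12545 in Sox4, with EV replicate 1 far below the others of its group. Its log2 fold change of 1.16 (adjusted p = 0.0467) lost its call with no filter (adjusted p = 0.191), with limma-voom (adjusted p = 0.0552), without EV replicate 3 (adjusted p = 0.0784) and without Sox4 replicate 1, 2 or 3 (adjusted p = 0.155, 0.0836 and 0.136).

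Negative acute phase proteins, which fall in plasma during the response, were in part lower as well. Of 8 tested, 5 were lower and 0 higher, beside 26.0% and 29.0% of all genes and 55.1% called in either direction, with a median log2 fold change of -0.64. Apoa1 (5069 to 1450 CPM, -1.81, adjusted p = 1.69e-05) and Apoa2 (-1.54, adjusted p = 1.02e-04), the main apolipoproteins of high density lipoprotein, to which serum amyloid A binds, decreased most. Trf (-0.74), Rbp4 (-0.71) and Alb (-0.58) were lower with TMM but not called with library size alone (-0.27, -0.24 and -0.10). Under that scaling 2 of the 8 were lower and 1 higher, beside 12.8% and 51.0% of all genes. With TMM, Alb also lost its call without EV replicate 2 (adjusted p = 0.113), EV replicate 3 (adjusted p = 0.069) or Sox4 replicate 2 (adjusted p = 0.0835).

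Most of the cytokines that induce these genes were at or near 0 in the hepatocyte libraries. Of 8 ligand genes, Il6, Osm, Il11 and Il22 had 0 counts in all 6 libraries, and Tnf had 1 count, in Sox4 replicate 3. Il1b had 0, 4 and 1 counts in EV and 7, 7 and 17 in Sox4. Il1a had 6, 5 and 5 counts in EV and 6, 17 and 20 in Sox4, above the floor in every library. Neither had enough counts to pass the filter. Lif, a cytokine of the interleukin 6 family, was the 1 ligand tested and was higher, with 8, 14 and 13 counts in EV and 253, 217 and 209 in Sox4 (log2 fold change 3.70, SE 0.22, adjusted p = 3.66e-06).

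All 8 of their receptor chains were tested. With library size alone 3 were lower and 2 higher, beside 12.8% and 51.0% of all genes. With TMM 5 were lower and 1 higher, beside 26.0% and 29.0% of all genes. The log2 fold change was -2.03 for Il1rap, the accessory chain of the interleukin 1 receptor (178 to 43.5 CPM, adjusted p = 1.16e-06), and -1.75 for Lifr, the receptor of Lif (264 to 78.4 CPM, adjusted p = 1.32e-04). It was -1.36 for Il6ra, the interleukin 6 receptor (64.4 to 25.1 CPM, adjusted p = 0.00104). Il6st, which encodes gp130, had -0.43 (adjusted p = 0.0386) and Tnfrsf1a, a tumour necrosis factor receptor, had -0.39 (adjusted p = 0.0223), but with library size alone these were 0.04 and 0.08 and not called. Il6st also lost its call with a mean count of at least 50 (adjusted p = 0.0564) and without EV replicate 2 or 3 or Sox4 replicate 1 or 2 (adjusted p = 0.074, 0.133, 0.0823 and 0.0986), and Tnfrsf1a without EV replicate 2 or Sox4 replicate 2 or 3 (adjusted p = 0.0832, 0.0527 and 0.0753). The interleukin 1 receptor Il1r1 did not pass (-0.76, adjusted p = 0.0994), although it did with no filter, with DESeq2 and with the replicate number as a block (adjusted p = 0.00231, 0.0446 and 0.0287). Osmr, the oncostatin M receptor, was the gene that was higher (2.44, adjusted p = 0.0134), on 1, 1 and 6 counts in EV and 14, 19 and 33 in Sox4. Osmr was 3.73 without EV replicate 3, and lost its call without EV replicate 1 or 2 (adjusted p = 0.052 and 0.0593).

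Of 12 signal transducers and transcription factors that act on these promoters, all were tested, and 7 were lower and 2 higher, beside 26.0% and 29.0% of all genes. Nr3c1, the glucocorticoid receptor, had a log2 fold change of -1.52 (adjusted p = 3.23e-06), and the C/EBP genes Cebpb (147 to 55.9 CPM), Cebpa and Cebpd had -1.40, -1.34 and -1.09 (adjusted p = 7.33e-04, 9.01e-04 and 0.0188). Cebpd lost its call with library size alone (adjusted p = 0.128), without EV replicate 2 (adjusted p = 0.0841) and without Sox4 replicate 2 (adjusted p = 0.0668). Hnf4a had -0.60 (adjusted p = 0.00580) and, with library size alone, -0.12 and no call. Stat3, the main transducer of interleukin 6, was higher by 0.36 (145 to 186 CPM, adjusted p = 0.0359), a call that was lost without any 1 library except Sox4 replicate 3 (adjusted p between 0.0572 and 0.128). Jak2 was higher by 0.60 (adjusted p = 0.0125) but not without EV replicate 1 (adjusted p = 0.0547) or Sox4 replicate 2 (adjusted p = 0.0567). With library size alone 3 of the 12 were lower and 4 higher, beside 12.8% and 51.0% of all genes.

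Among 10 feedback inhibitors and early targets of these cytokines, 9 were tested, 4 were higher and 0 lower, a share of calls below the 55.1% of all genes. There were 5 higher with library size alone, a scaling with which 51.0% of all genes were called higher. Socs3, which STAT3 induces and which blocks gp130 signaling, had 101, 42 and 73 counts in EV and 847, 528 and 515 in Sox4, an increase of 2.55 on the log2 scale (SE 0.43, adjusted p = 1.94e-04). Every Sox4 library had more Socs3 than any EV library and less Saa1, Orm1 and Hp, but 63.0% of all genes separated the groups. Within the Sox4 group, Socs3 was at 42.45, 26.97 and 26.1 CPM in replicates 1, 2 and 3. Replicate 1 was thus the highest for Socs3 and also for Saa1, Orm1 and Hp. EV replicate 1 had the most Socs3 and Saa1 of its group but the least Orm1 and Hp. A relation between Socs3 and these genes was not tested. Nfkbiz, an NF-kB cofactor, was higher by 0.81 (adjusted p = 0.00382). Tnfaip3, a brake on NF-kB, had 0.75 (adjusted p = 0.0198, lost without EV replicate 1 or 2 at 0.0736 and 0.0764). Nfkb2 had 0.57 (adjusted p = 0.0343), lost without EV replicate 1 or 3 or Sox4 replicate 1 or 2 (adjusted p = 0.12, 0.121, 0.079 and 0.0707). Over the 38 ligands, receptors, transducers and targets together, 30 were tested, 8 were higher and 12 lower, beside 55.1% of all genes called in either direction. With library size alone 12 were higher and 6 lower, beside 51.0% and 12.8% of all genes. Leaving out Sox4 replicate 2 reduced the calls with TMM from 20 to 12.

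**Figure D4:**
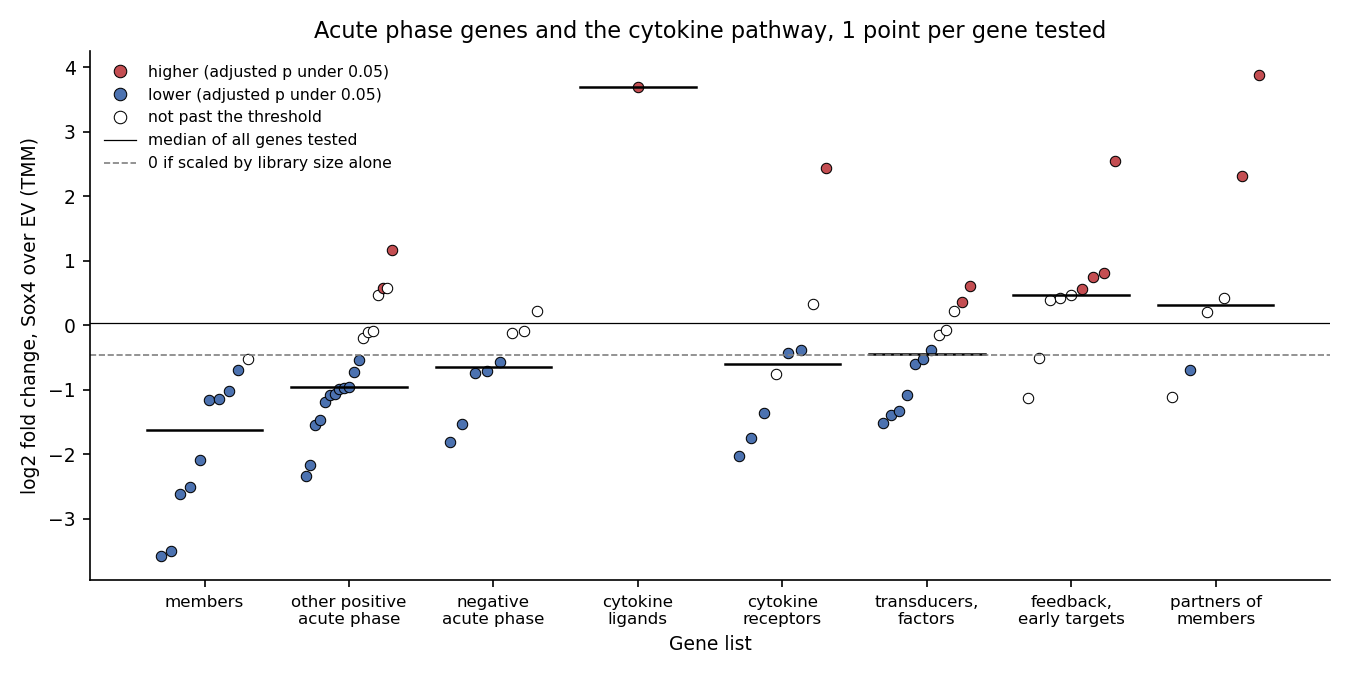
log2 fold change, Sox4 over EV with TMM scaling, of each gene tested in the acute phase and cytokine pathway lists, with red for higher, blue for lower and white for genes not past an adjusted p of 0.05 and a line at each list's median. The solid line is the median of all genes tested (0.04), and the dashed line is where 0 would lie with library size alone. The medians of the 10 acute phase genes (-1.63) and of the other positive acute phase proteins (-0.95) lie below both. So do those of the negative acute phase proteins (-0.64) and of the cytokine receptors (-0.60).

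Of 8 receptors and partners of the acute phase proteins, 6 were tested, 2 were higher and 1 lower, a share of calls near the 55.1% of all genes. Hmox1, the heme oxygenase that degrades heme taken up with haptoglobin or hemopexin, went from 4.05 to 20.2 CPM (log2 fold change 2.32, adjusted p = 1.12e-05). Slc22a17, a receptor of lipocalin 2, was at or under the floor in EV (0, 3 and 0 counts) and had 22, 27 and 23 counts in Sox4, at least 5.39-fold higher over the floor of the group's libraries (adjusted p = 0.00244). Lrp1, a receptor of hemopexin-bound heme, had -0.70 (adjusted p = 0.00176), and -0.23 with no call under library size alone. Under that scaling 3 of the 6 were higher and 0 lower, beside 51.0% and 12.8% of all genes.

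The genes on each side of the member loci that passed the filter showed no common direction. Beside the serum amyloid A genes on chromosome 7, Saal1 and Hps5 had log2 fold changes of -0.21 and 0.21 and were not called (adjusted p = 0.409 and 0.163), although Hps5 was higher with library size alone (0.68, adjusted p = 8.04e-04). Beside the orosomucoid genes on chromosome 4, Col27a1 and Whrn had 0.25 and 1.28 (adjusted p = 0.545 and 0.0663), and beside Hp on chromosome 8, Txnl4b and Dhodh had -0.24 and -0.29 (adjusted p = 0.257 and 0.163). Whrn was called higher with library size alone (1.75), with no filter (1.32), without EV replicate 2 (1.83) and without Sox4 replicate 2 (1.58). Ptges2 and 1110008P14Rik beside Lcn2 on chromosome 2 were lower, by -0.65 and -0.55 (adjusted p = 0.00522 and 0.0203), as far as or further than Lcn2 itself, but neither was called with library size alone (-0.19 and -0.08). 1110008P14Rik also lost its call without EV replicate 2 (adjusted p = 0.0832) or Sox4 replicate 3 (adjusted p = 0.0694). Near Apcs, Crp lay 4 genes away and was lower, as given above.

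Markers of other cell types were compared because Lcn2 and Saa3 are also made outside hepatocytes. The summed level of 8 hepatocyte markers was 111300 to 133300 CPM in EV libraries, against 78760 to 90030 CPM in Sox4 libraries. Most of that sum was Alb (84580, 108500 and 104500 CPM in EV, 61970, 64600 and 73000 CPM in Sox4), which was not called with library size alone. Of the 8 markers, 6 were lower, or 4 with library size alone, beside 26.0% and 12.8% of all genes. None of 10 neutrophil markers passed the filter, their summed level was 0.304 to 1.67 CPM in EV libraries, against 0.760 to 1.99 CPM in Sox4 libraries, and Camp and Ly6g had 0 counts in every library. Of 10 Kupffer cell and macrophage markers, 9 were tested, 4 were higher and 0 lower, beside 29.0% and 26.0% of all genes. With library size alone 8 were higher, beside 51.0% of all genes. The summed level of these markers was 12.4 to 29.8 CPM against 31.1 to 70.5 CPM. The 4 were Cd68 (2.39), Marco (2.30), Cd5l (1.81) and Lyz2 (1.42), of which Cd5l lost its call without EV replicate 2 (adjusted p = 0.0525) and Lyz2 without Sox4 replicate 2 (adjusted p = 0.0527). Saa3 was lower with TMM in the libraries in which the macrophage markers summed higher, but its call was lost with library size alone. Neutrophil markers were near the floor in the libraries in which Lcn2 had 11.2 to 30.9 CPM. The summed levels of endothelial (14.02 to 20.96 against 11.7 to 26.5 CPM), stellate and mesenchymal (8.63 to 46.4 against 83.9 to 141 CPM), cholangiocyte (5.999 to 17.03 against 13.3 to 19.3 CPM) and lymphocyte markers (0.539 to 2.43 against 1.15 to 3.98 CPM) overlapped between groups except for the stellate list. That list's sum was carried by Reln, at 7.09, 22.6 and 37.5 CPM in EV against 126, 117 and 50.8 in Sox4, and without Reln, a choice made after seeing its values, the sums overlapped (1.54 to 8.86 and 8.12 to 33.0 CPM). Of these lists, 2 of 6 endothelial, 3 of 5 stellate, 1 of 2 cholangiocyte and 0 of 1 lymphocyte genes tested were higher, and 1 endothelial gene was lower. The shares of all genes were 29.0% higher and 26.0% lower. The part of other cells in the levels of the 10 genes was not tested.

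Genes with the pattern most like that of each member over the 6 libraries were found by the root mean square difference of centred log2 CPM, a measure that the difference between the groups dominates. Saa1 was nearest to Sucnr1 (0.378), Alas2 (0.387) and Cyp8b1 (0.436), and Saa2 to Alas2 (0.243), Haao (0.319) and Aldoc (0.321). Orm1 was nearest to C1ra (0.0864), Baat (0.0987) and Nat8f2 (0.107), and Hp to Sfxn5 (0.0983), Itih1 (0.11) and Acsm1 (0.113). The nearest gene was Pla1a for Saa3 (0.0855), Klf12 for Saa4 (0.0465), Crybg3 for Orm2 (0.161), Chchd10 for Orm3 (0.0908) and Tmem53 for Lcn2 (0.224). Genes under a mean of 10 CPM were not searched, so Saa2, Saa3 and Orm3 could not be found near another member.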

How the data were processed

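RNA from mouse hepatocytes was sequenced in 6 libraries, 3 for each of 2 groups, and groups and replicate numbers were taken from the labels. The authors aligned reads to GRCm39 with STAR (2.7.10b in the submitters' processing notes) and used featureCounts 2.0.1 to count reads in genes. The deposited values used here are raw counts. Strand setting, annotation release and treatment of reads with several matches are not given in the sources used here, which leaves near-identical genes (Saa1 and Saa2, the orosomucoids) uncertain. A normalized signal was deposited as well, the counts divided by a DESeq2 size factor for each library, which was used in 1 alternative.

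Genes were kept with filterByExpr (minimum count 10, minimum total count 15), scaled by TMM and compared with the quasi-likelihood F test of edgeR 4.0.16 in R 4.3.3, with robust dispersion, no covariate and Benjamini-Hochberg adjustment over the 12691 genes tested (threshold 0.05). Every adjusted p in the text is from this fit or the named alternative, limma 3.58.1 or DESeq2 1.42.0. Levels are given in CPM after TMM scaling (mean ± SD, n = 3), and the SE of a fold change was computed from log2 CPM (prior count of 2) as the error of the difference of the means. Ratios within a library were formed after adding 0.5 to each count. Replicate libraries differed beyond counting error (chi-square per degree of freedom of 19.3 to 69.8), so each counted as 1 replicate. The floor of 3 counts covers counting error only, since PCR copies are not independent molecules.

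The 10 genes and the other lists were chosen with earlier results of these data known, from general knowledge of the acute phase response. Named were the 10 genes, Sox4, up to 5 called genes in each direction of each list by size, a set of core cytokine pathway genes whatever their result, the tested neighbours of each locus and the genes of most similar pattern, of which some are not reported here. For lists of cell markers other than macrophages mostly totals and counts of calls are given. Exon lengths and shared words of 50 bases came from GENCODE M21 and promoters from RefSeq, both on GRCm38.p6, not the build of the counts. The tests were tried before use on simulated counts in which a small share of genes changed, equally many up and down. Such data do not probe the scaling of libraries in which most genes moved. Alternatives were other scaling, filters and tools, the replicate number as a block and each library left out.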

Additional observations from a re-analysis of the deposited data

How the results depend on the processing

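The number of acute phase genes called lower was between 7 and 10 over the alternatives, with 0 called higher in any, and all of those tested had log2 fold changes below 0. Leaving out each library gave 8 to 10 lower. With a mean count of at least 50, Orm3 and Saa3 were not tested and 7 of the other 8 were lower. Calls over all genes ranged from 5937 to 8092. With library size alone, 3 negative acute phase proteins were called in place of 5, and the log2 fold changes of Il6st (0.036), Tnfrsf1a (0.083), Saal1 (0.26), Txnl4b (0.23) and Dhodh (0.18) turned positive, as the construction of that scaling raises every value in Sox4. Leaving out 1 library gave 12 to 19 calls among the cytokine pathway genes and log2 fold changes of -0.040 to 0.54 for Col27a1. The cause was not tested. Among the values of single genes under all alternatives, 734 kept their direction and side of the threshold, 49 lost a call, 11 gained one and 6 changed direction.

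The replicate number as a block gave 7362 calls over all genes and 10 acute phase genes lower, Lcn2 included. Deviations of libraries with the same number correlated at 0.273, -0.0898 and 0.131. The value of 0.273 was the highest between any EV and any Sox4 library, but not every library correlated best with its own number. EV replicate 3, for example, correlated at 0.177 with Sox4 replicate 2. Whether the numbers pair the libraries was not settled by so few values. Of the 10, Saa1 and Saa2 had the largest SE (0.88 and 0.56), and counts in Sox4 libraries were as low as 8 for Saa2 and 11 for Orm3.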

Other observations

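In the Sox4 group the libraries had 1088, 771 and 599 CPM of Sox4 in replicates 1, 2 and 3, and the summed level of the 10 acute phase genes was 1395, 1142 and 859 CPM in the same libraries. The library with the most Sox4 was also that with the most Saa1, Saa2, Saa3, Saa4, Orm1, Orm2 and Hp, and the library with the least Sox4 had the lowest Saa1, Saa2, Saa3, Saa4, Orm1, Orm2, Hp and Lcn2. Orm3 and Apcs did not follow this order, with 0.551, 0.562 and 0.608 CPM and 54.6, 63.4 and 60.5 CPM in replicates 1, 2 and 3. With 3 libraries no relation between these values was tested.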
